A study of Rattus norvegicus with 10 samples.

Results

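The genes described here encode the hyaluronan receptor CD44, the cytoskeletal linkers that its cytoplasmic tail binds, and the small tetraspan proteins of the epithelial membrane protein family. They were Cd44, the 3 ERM genes Ezr (ezrin), Rdx (radixin) and Msn (moesin), the ERM relative Nf2 (merlin), and Emp1, Emp2, Emp3 and Pmp22 (peripheral myelin protein 22). They were taken by gene symbol from the rows of the count matrix, each of which is a RefSeq transcript and is called a feature. All 9 were found, with 1 row each, among 32041 features, and all 9 were among the 22447 features with enough counts to be tested. The study named Cd44, Msn and Emp3 as upregulated in all 3 of its epilepsy models. These samples are of 1 of those models, so the differences of these genes between the groups are given as a description. The other 6 genes are their family relatives, and the question was whether these follow the 3 named genes.

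Messenger RNA of the left hippocampus, in a piece holding the CA3 field and the dentate gyrus, labelled dorsal hippocampus, was sequenced from 10 male Sprague-Dawley rats weighing 290 to 320 g at the start. All 10 had a bipolar electrode placed in the left lateral amygdala under isoflurane after an injection of butorphanol. The 5 sham rats (rats 1 to 5) received no current. The 5 stimulated rats (rats 6 to 10) received 400 µA pulses at 60 Hz for 30 min, prolonged where needed, after 2 weeks of recovery, to evoke status epilepticus, which was ended with diazepam. Tissue was taken 3 months later, when per the study's methods the enrolled stimulated rats had spontaneous seizures. The effects of the seizures and of the drug cannot be told apart in this design. The labels assign 5 stimulated rats to this assay and the study's methods count 4, without saying which rat was omitted, so all 10 were used.

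CD44 binds hyaluronan, the main glycosaminoglycan of the brain's extracellular matrix, and in the adult brain it is carried mainly by astrocytes, where it is known to increase in reactive gliosis. The ERM proteins fold through an N-terminal FERM domain that binds membrane proteins such as CD44 and a C-terminal tail that binds actin. Merlin shares the FERM domain, lacks the typical actin-binding tail, and acts upstream of the Hippo growth-control pathway. The Emp proteins and Pmp22 cross the membrane 4 times and are distant relatives of the claudins. Pmp22 is best known as a component of compact myelin of Schwann cells in peripheral nerve.

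Aligned counts lay between 13552309 and 24086059 per sham rat and between 15586870 and 21642792 per stimulated rat, and the share of reads left unaligned was 32.8% to 37.1% in sham rats. It was 35.6% and 32% in stimulated rats 6 and 7, and 41.4%, 42.9% and 45.1% in rats 8, 9 and 10, above all sham rats. Its part in the results was not tested. Levels are given as CPM, which scale the counts by the TMM-adjusted library size, and they are not compared between genes because transcript lengths were not used. The tissue label was checked against marker genes. Summed over 3 markers of CA3 pyramidal cells, the level was 407.7 to 464.3 CPM in the sham group and 363.3 to 517.3 CPM in the stimulated group. Of the dentate granule cell markers, C1ql2 was at 140.5 to 165.1 CPM in sham rats and at 44.8 to 207.2 CPM in stimulated rats, lowest in rat 7. Prox1 was at 22.3 to 35.9 CPM in sham and 21.3 to 52 CPM in stimulated rats, with rat 7 inside the sham range, while Tdo2 was under 1 CPM and Dsp was not analysed here. The 3 CA1 markers summed to 167.1 to 288.6 CPM in the sham group and 97.6 to 341.9 CPM in the stimulated group, so the tissue was not free of CA1. Between pairs of rats within a group, the median chi-square per feature, a squared difference, was set against that of sampling noise alone. It was 4.2 to 7.53 times as large in sham pairs and 5.32 to 13.3 times in stimulated pairs. No library repeated another.

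Stimulated rats were first compared with sham rats over the 9 genes together. Mean levels were higher in stimulated rats for all 9, with log2 fold changes from 0.05 for Nf2 to 2.23 for Cd44 and a median of 0.48, beside a median of 0.01 over all tested features. The threshold was an adjusted p under 0.05 by the quasi-likelihood test of edgeR. None of the 9 passed it, nor did any of the 22447 features (0%), where the lowest adjusted p was 0.376. At an unadjusted p under 0.05, 1505 features were higher and 709 lower, and DESeq2 gave 33 features with an adjusted p under 0.05. An unadjusted p under 0.05 was obtained for 5 of the 9 genes, Cd44, Msn, Emp3, Emp1 and Pmp22, all higher in stimulated rats. Among the 6 relatives this was 2 of 6, Emp1 and Pmp22, where 6.7% of all tested features were higher and 3.16% lower by the same rule. The relatives were chosen with results of these data known, so the count carries no test of its own. In bulk tissue, a change in the number of cells of a type and a change in RNA per cell cannot be told apart.

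**Figure D1:**
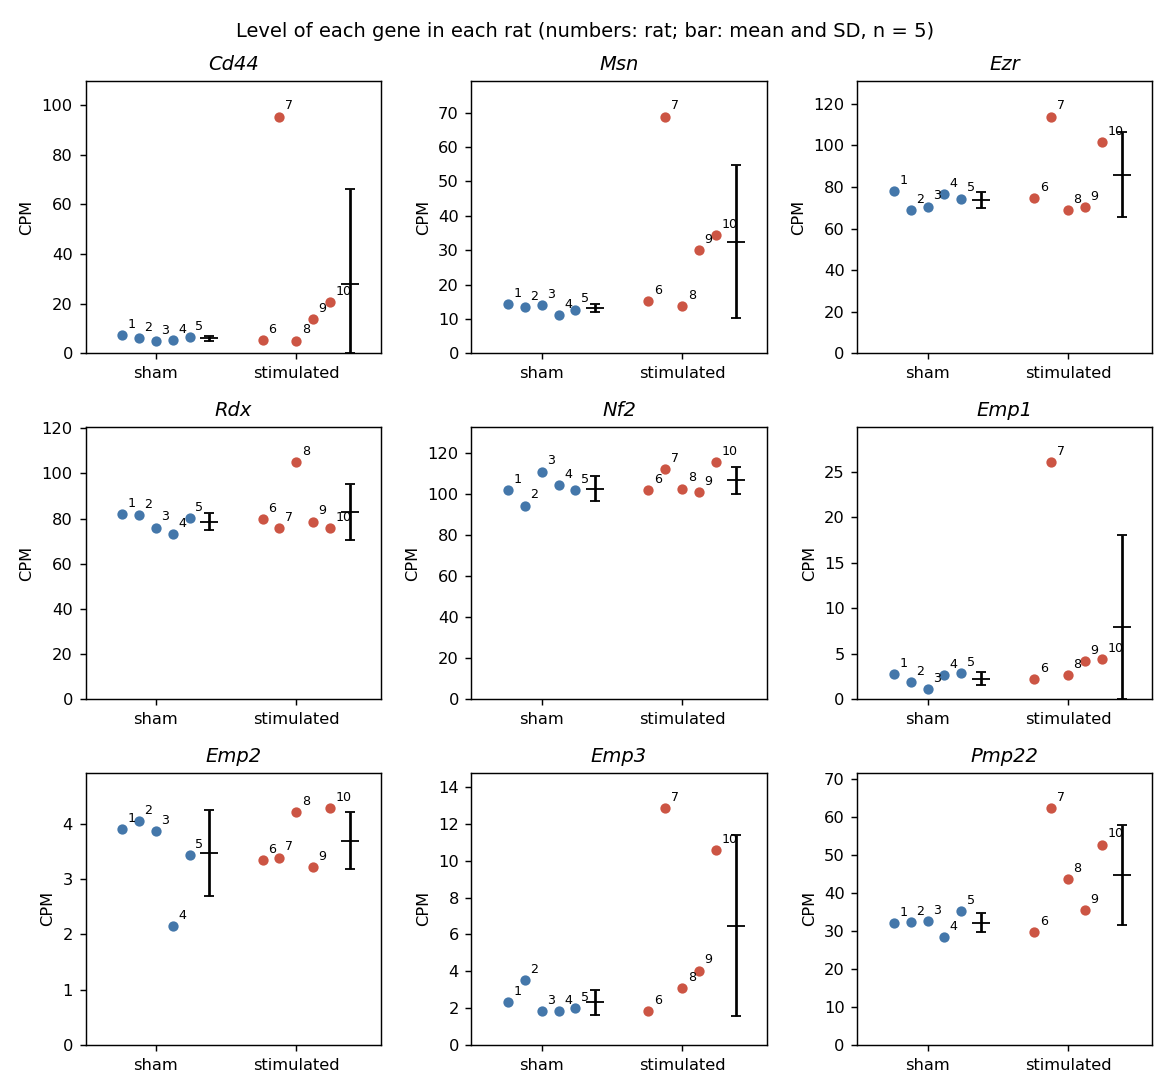
Level of each of the 9 genes in CPM (vertical axes, starting at 0) in sham (blue) and stimulated (red) rats, with the rat number beside each point and the group mean and SD (n = 5 each, bars cut at 0) at its right. Rats 7, 9 and 10 stand above all sham rats for Cd44, Msn, Emp1 and Emp3, while Rdx is highest in rat 8 and Nf2 and Emp2 stay near the sham levels.

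The receptor, Cd44 (NM_012924), was counted at 7.33, 6.11, 4.79, 5.21 and 6.58 CPM in sham rats 1 to 5. In stimulated rats 6 to 10 it was counted at 5.2, 95.3, 5.11, 13.9 and 20.5 CPM. Rats 7, 9 and 10 thus lay above all sham rats, at 15.9, 2.31 and 3.42 times the sham mean, and rats 6 and 8 lay within the sham range. Over the groups this gave 6.003 ± 1.03 CPM in the sham group and 28 ± 38.2 CPM in the stimulated group (mean ± SD of 5 rats). The log2 fold change was 2.23 (standard error 0.672, 95% interval 0.78 to 3.67, adjusted p = 0.396). It was 0.89 without rat 7, whose 2052 counts compare with 80 to 157 counts in the sham rats. On the log2 scale the SD was 0.245 in sham and 1.73 in stimulated rats.

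Among the linkers, moesin was the one named by the study. Msn (NM_030863) was counted at 14.3, 13.5, 14, 11.2 and 12.7 CPM in sham rats 1 to 5 and at 15.2, 68.9, 13.7, 30.1 and 34.3 CPM in stimulated rats 6 to 10. Rats 7, 9 and 10 were again clearly above the sham rats, rat 6 was just above them, and rat 8 lay among them. The mean was 13.1 ± 1.27 CPM in the sham group and 32.4 ± 22.3 CPM in the stimulated group (mean ± SD of 5 rats), a log2 fold change of 1.31 (standard error 0.351, 95% interval 0.55 to 2.06, adjusted p = 0.376). Without rat 7 the log2 fold change was 0.82.

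Ezrin is the ERM protein best known from the fine processes of astrocytes. Ezr (NM_019357) was counted at 77.9, 68.9, 70.5, 76.4 and 74.4 CPM in sham rats and at 74.8, 113.9, 68.7, 70.5 and 101.7 CPM in stimulated rats 6 to 10. Rats 7 and 10 were above the sham range, rat 8 was just below it, and rat 9, in which Cd44 and Msn were high, lay within it. Group means were 73.6 ± 3.81 and 85.9 ± 20.5 CPM (mean ± SD of 5 rats), a log2 fold change of 0.22 (standard error 0.136, 95% interval -0.07 to 0.52, adjusted p = 0.605) that became 0.09 without rat 7. The interval bounds the mean difference at a 1.43-fold excess in stimulated rats.

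Radixin is the third ERM protein. Rdx (NM_001005889) was counted at 82.1, 81.4, 76, 73.2 and 80.3 CPM in sham rats and at 79.9, 75.9, 104.9, 78.6 and 75.9 CPM in stimulated rats 6 to 10. Its single high value was in rat 8, where Cd44 and Msn were at sham levels, and in rat 7 it lay inside the sham range. The log2 fold change of 0.08 (standard error 0.1, 95% interval -0.14 to 0.29, adjusted p = 0.83) was -0.034 without rat 8, opposite in sign. The upper bound of the fold was 1.23. Rat 8 also had the highest level of the Schwann cell gene Prx, at 8.24 CPM, whose part in the Rdx value was not tested.

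Merlin is the relative of the ERM proteins among the 9. Nf2 (NM_013193) was counted between 94.4 and 111 CPM in sham rats and at 102.1, 112.1, 102.7, 100.9 and 115.5 CPM in stimulated rats 6 to 10, with rats 7 and 10 just above the sham range. Its means were 102.7 ± 5.96 and 106.7 ± 6.66 CPM (mean ± SD of 5 rats), and its log2 fold change was 0.05 (standard error 0.0779, 95% interval -0.11 to 0.22, adjusted p = 0.858). A mean excess of over 1.17-fold lay outside this interval.

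Because 36-base reads of paralogous transcripts can be split between them, and the study does not state how shared reads were counted, the levels of the 3 ERM genes carry some uncertainty. The log2 ratio of genes within a rat is free of library scaling. The log2 ratio of Msn to the mean of Ezr and Rdx was -2.47, -2.46, -2.37, -2.73 and -2.60 in sham rats, and -2.34, -0.43, -2.63, -1.30 and -1.35 in stimulated rats 6 to 10. Relative to its paralogs, Msn was thus above all sham rats in rats 7, 9 and 10, marginally so in rat 6, and not in rat 8. Between Ezr and Rdx the log2 ratio lay from -0.24 to 0.06 in sham rats and spread from -0.61 in rat 8 to 0.58 in rat 7. These ratios are not tested, since Msn was chosen for its difference between the groups.

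**Figure D2:**
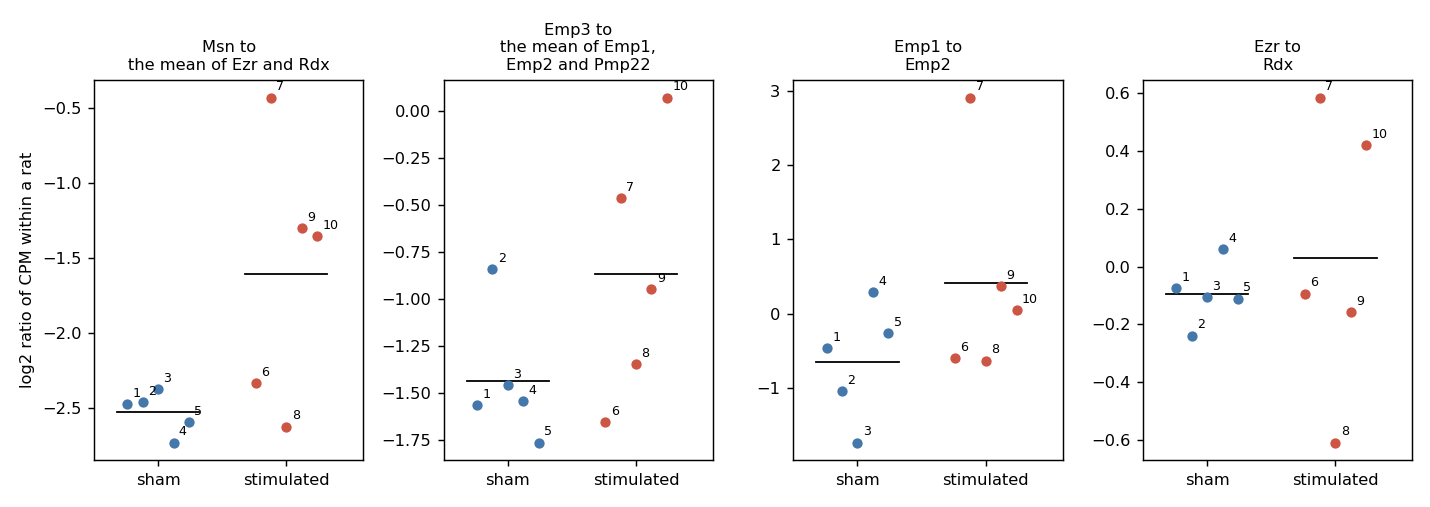
Log2 ratios of CPM between family members within each rat (vertical axes) for sham (blue) and stimulated (red) rats, with rat numbers and a line at each group mean. The ratio of Msn to its paralogs is highest in rats 7, 9 and 10, the ratio of Emp1 to Emp2 is highest in rat 7 at 2.905, and the ratio of Ezr to Rdx parts rats 7 and 10 from rat 8.

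In the tetraspan family, Emp3 (NM_030847), which is known from leukocytes and reactive or transformed glia, was counted at 2.33, 3.51, 1.85, 1.82 and 2.01 CPM in sham rats 1 to 5. In stimulated rats 6 to 10 it was counted at 1.855, 12.9, 3.065, 4.03 and 10.6 CPM. Rats 7 and 10 were far above the sham rats, rat 9 was slightly above them, and rats 6 and 8 lay among them. The means were 2.3 ± 0.704 and 6.48 ± 4.91 CPM (mean ± SD of 5 rats) and the log2 fold change was 1.51 (standard error 0.458, 95% interval 0.53 to 2.50, adjusted p = 0.396). In the sham rats, 34 to 48 reads were counted.

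Emp1 (NM_012843), whose transcript is known as a target of growth factor signalling, was counted at 2.79, 1.91, 1.09, 2.65 and 2.85 CPM in sham rats and at 2.17, 26.1, 2.68, 4.18 and 4.44 CPM in stimulated rats 6 to 10. The rats above all sham rats were 7, 9 and 10, as for Cd44, Msn and Emp3. Rat 7, at 11.5 times the sham mean, carried most of the difference. The means of 2.26 ± 0.754 and 7.91 ± 10.2 CPM (mean ± SD of 5 rats) gave a log2 fold change of 1.80 (standard error 0.6145, 95% interval 0.48 to 3.12, adjusted p = 0.409), and without rat 7 it was 0.55.

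Emp2 (NM_001007721), a regulator of integrin trafficking in epithelia, was counted at 3.9, 4.045, 3.86, 2.15 and 3.44 CPM in sham rats and at 3.35, 3.39, 4.21, 3.21 and 4.28 CPM in stimulated rats 6 to 10. Rats 8 and 10 were just above the sham range, the other stimulated rats lay within it, and rat 7 was at 0.974 times the sham mean. The log2 fold change was 0.09 (standard error 0.2, 95% interval -0.34 to 0.52, adjusted p = 0.914), and -0.046 without sham rat 4, which had the lowest level. The upper bound of the fold was 1.44, with 52 to 83 reads counted per rat.

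Pmp22 (NM_017037) was counted at 32.1, 32.4, 32.7, 28.3 and 35.4 CPM in sham rats and at 29.7, 62.4, 43.6, 35.5 and 52.8 CPM in stimulated rats 6 to 10. Rats 7, 8 and 10 were clearly above the sham rats, and rat 9 exceeded the highest of them by the smallest of margins. The means were 32.2 ± 2.52 and 44.8 ± 13.1 CPM (mean ± SD of 5 rats), with a log2 fold change of 0.48 (standard error 0.17, 95% interval 0.11 to 0.84, adjusted p = 0.414) that was 0.32 without rat 7.

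Prx (periaxin) and Pou3f1, which mark Schwann cells, the cells known for abundant Pmp22, were read beside this result. Prx, named here after its values were seen, was at 8.24 CPM in rat 8 and at 1.58 to 3.21 CPM in the other 9 rats. Pou3f1, which neurons also express, was at 6.64 CPM in rat 8, within the sham range of 4.54 to 9.64 CPM. In rats 7 and 10, whose Pmp22 levels were the highest, Prx was at 2.23 and 2.01 CPM, within its sham range, and Pou3f1 was at 3.30 and 1.96 CPM, below its sham range. Neither marker had an unadjusted p under 0.05, and they summed to 7.74 to 12.1 CPM in sham rats and 3.97 to 14.9 CPM in stimulated rats. The part of Schwann cells and of other cell types in the Pmp22 value of rat 8 was not tested. Markers of pericytes, smooth muscle and fibroblasts summed to 114.1 CPM in rat 8 and to 65.97 to 83 CPM in sham rats. Without rat 8 the log2 fold change of Pmp22 was 0.47.

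Ratios within the tetraspan family were read in the same way. The log2 ratio of Emp1 to Emp2 was -1.74 to 0.29 in sham rats and -0.60, 2.905, -0.63, 0.37 and 0.05 in stimulated rats 6 to 10. That of Emp3 to the mean of Emp1, Emp2 and Pmp22 was -1.77 to -0.84 in sham rats, with rats 7 and 10 above this range at -0.46 and 0.07.

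The upstream sequences of Emp1 and Emp2 are shown because rats 7, 9 and 10 exceeded all sham rats for the first and not all of them did for the second, and that of Cd44 because it had the largest log2 fold change of the 9. They are the 250 bases before the start of the RefSeq entry in the GRCr8 assembly, 5′ to 3′ on the strand of the gene, with matches to AP-1 (TGANTCA, which reads the same on both strands) and TEAD (GGAATG, either strand) motifs in capitals. The windows are chr4:169943980-169944229 (plus strand) for Emp1, chr10:5866619-5866868 (plus strand) for Emp2 and chr3:109699425-109699674 (minus strand) for Cd44. GRCr8 is not the build on which the reads were counted.

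Emp1: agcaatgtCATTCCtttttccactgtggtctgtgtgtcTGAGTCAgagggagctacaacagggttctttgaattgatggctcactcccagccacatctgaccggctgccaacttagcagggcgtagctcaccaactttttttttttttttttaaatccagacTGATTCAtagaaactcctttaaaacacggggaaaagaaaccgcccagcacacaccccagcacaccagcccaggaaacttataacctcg

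Emp2: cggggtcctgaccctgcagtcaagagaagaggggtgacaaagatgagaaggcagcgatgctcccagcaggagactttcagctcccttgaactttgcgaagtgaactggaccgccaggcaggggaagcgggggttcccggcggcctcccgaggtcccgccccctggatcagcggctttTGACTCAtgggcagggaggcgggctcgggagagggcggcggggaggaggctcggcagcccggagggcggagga

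Cd44: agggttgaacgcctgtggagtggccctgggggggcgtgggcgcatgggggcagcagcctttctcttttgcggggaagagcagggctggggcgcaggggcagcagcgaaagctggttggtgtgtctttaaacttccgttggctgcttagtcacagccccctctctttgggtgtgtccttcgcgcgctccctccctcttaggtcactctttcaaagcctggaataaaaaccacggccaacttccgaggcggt

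AP-1 is the dimer of Fos and Jun proteins, and TEAD proteins are the DNA-binding partners of the Hippo effectors. The AP-1 letters occurred 2 times before Emp1, 212 and 88 bases before its start, and 1 time before Emp2, 73 bases before its start. They were not found in the same window of the other 7 genes, Cd44, Msn and Emp3 among them. Of all 33469 windows of this length, 6.34% held the AP-1 letters and 12.1% the TEAD letters, which occurred before Emp1 (at 242 bases) and Pmp22 (at 174 bases). The motifs were chosen after the levels were known, and a match describes letters, not a bound site.

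**Figure D3:**
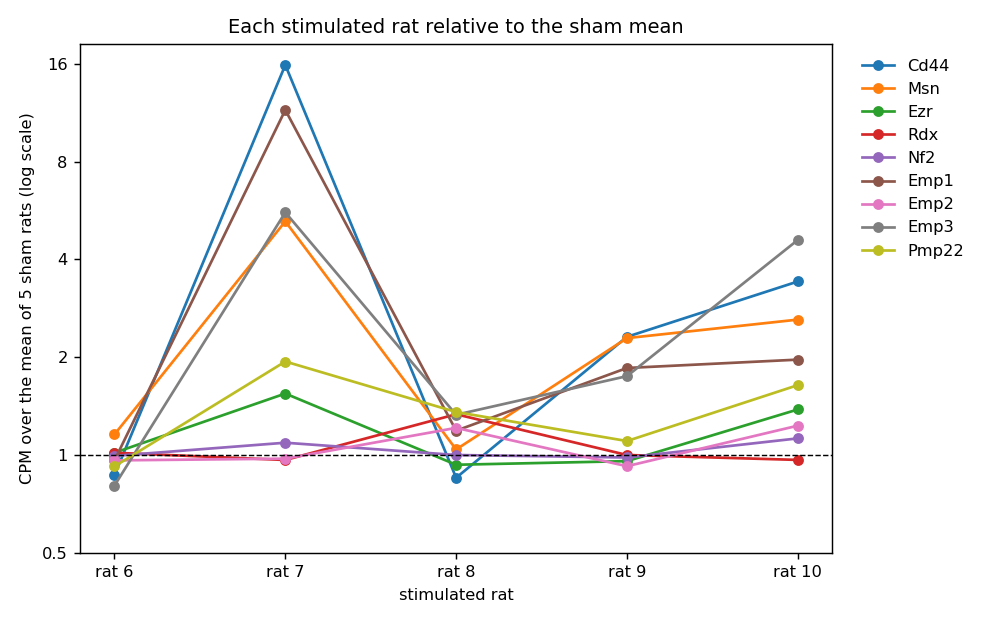
Level of each gene in stimulated rats 6 to 10 relative to the mean of the 5 sham rats (vertical axis, log scale, dashed line at 1), with a line joining the values of 1 gene. Cd44 and Emp1 reach 15.9 and 11.5 times the sham mean in rat 7, and in rat 6 the 9 genes lie between 0.805 and 1.16 times the sham mean.

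The stimulated rats were unequal in how many of the 9 genes exceeded the sham rats. Rat 10 exceeded all sham rats for 8 of the 9 genes, rat 7 for 7, rat 9 for 5, rat 8 for 3 and rat 6 for 1, Msn. The share of all tested features above all sham rats was not computed for each rat. These counts therefore do not show a trait particular to the 9 genes. Of the 5 genes that exceeded all sham rats in rat 9, 4 were Cd44, Msn, Emp1 and Emp3, and the fifth was Pmp22. At least 3 stimulated rats lay above all sham rats for these 5 genes, 2 of them among the 6 relatives, where 14.8% of all tested features did so. The groups overlapped for all 9 genes; over all tested features, 0.695% had every stimulated rat above every sham rat and 0.597% the reverse.

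**Figure D4:**
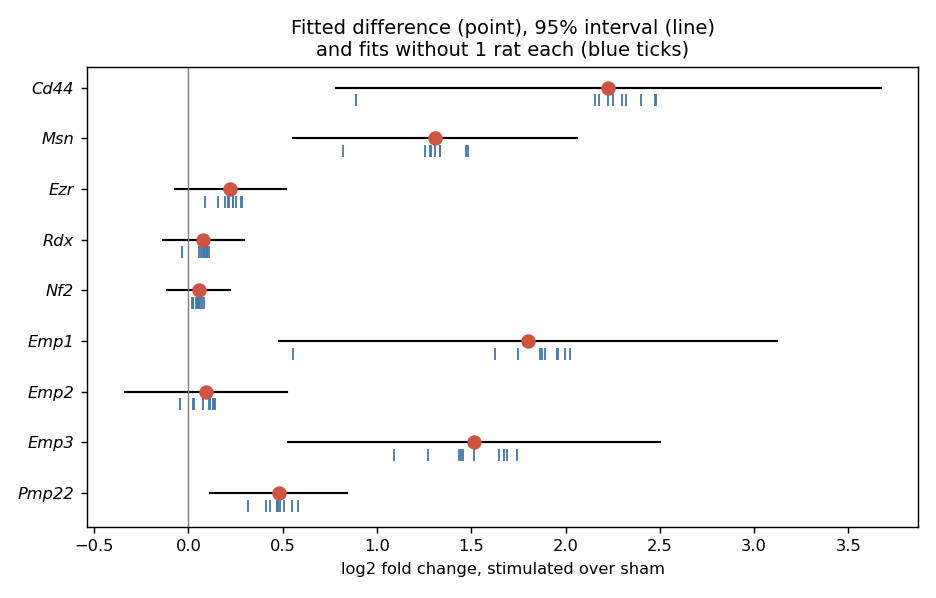
Log2 fold change of each gene, stimulated over sham (point), with its 95% interval derived from edgeR's quasi-likelihood test (line, n = 5 per group) and the values of the 10 fits that each left out 1 rat (blue ticks). Intervals of Cd44, Msn, Emp1, Emp3 and Pmp22 lie above 0 before adjustment for multiple testing, and those of Ezr, Rdx, Nf2 and Emp2 span 0.

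To see which transcripts shared these patterns, the Pearson correlation of log2 CPM over the 10 rats was computed with all tested features, as a description with no test, over rats that share their group and library. The closest genes are named only among features with a gene symbol, 57.7% of those tested. For Cd44, they were Dclk2 (r = 0.988), a neuronal doublecortin-like kinase, Nptxr (0.984), the neuronal pentraxin receptor, Litaf (0.982), Stk40 (0.979) and S1pr3 (0.979), a sphingosine-1-phosphate receptor of astrocytes and vessels. With rats 7 and 10 left out, r with Cd44 was 0.921 for Dclk2, 0.859 for Nptxr, 0.819 for Litaf, 0.909 for Stk40 and 0.788 for S1pr3. Of the rats left, rat 9 had the highest Cd44 level, at 13.9 CPM. In all, 273 features (1.22%) had an r of at least 0.9 with Cd44, and 268 (1.19%) with Msn. Msn was closest to Slc2a1 (r = 0.985), the glucose transporter of the blood-brain barrier, Vegfa (0.978) and Gpnmb (0.978). Emp3 was closest to Upp1 (r = 0.986), uridine phosphorylase, Bgn (0.981), the matrix proteoglycan biglycan, and Rrp1 (0.974).

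Among the family members, r with Cd44 was 0.968 for Msn (0.871 without rats 7 and 10), 0.947 for Emp1 (0.713), 0.902 for Emp3 (0.654), 0.883 for Ezr (-0.05) and 0.842 for Pmp22 (0.154). The values for Ezr and Pmp22 thus rested on rats 7 and 10, and those for Msn, Emp1 and Emp3 were lower but still positive without them. Among the rats left, rat 9 had the highest level of Cd44, Msn, Emp1 and Emp3, and r without it was not computed. For Nf2, Emp2 and Rdx, r with Cd44 was 0.532, 0.0577 and -0.308 over the 10 rats. Spearman's rho with Cd44 was 0.879 for Emp1, 0.77 for Emp3, 0.612 for Ezr and 0.6 for Msn.

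The genes around CD44 were examined next, none of which had an adjusted p under 0.05 in the same test. In the pathway lists that follow, counts stand beside 6.7% of all tested features higher and 3.16% lower with an unadjusted p under 0.05. Of 9 tested genes for hyaluronan synthesis, breakdown and reception, 2 had an unadjusted p under 0.05, both higher in stimulated rats. These were the synthases Has1, with a log2 fold change of 1.16 (standard error 0.4995), and Has2, with 1.87 (standard error 0.625), at mean levels of 0.421 and 0.311 CPM in sham and 0.952 and 1.17 CPM in stimulated rats. The list's median log2 fold change was -0.04. Of 10 ligands, sheddases and partner receptors of CD44, 3 were higher with an unadjusted p under 0.05 and the median was 0.41. Mmp9, a metalloproteinase that docks on CD44, was counted at 0.174 to 1.32 CPM in sham rats and at 1.855, 20.4, 0.894, 17.5 and 56.9 CPM in stimulated rats 6 to 10, a log2 fold change of 4.38 (standard error 0.915, adjusted p = 0.376). Mmp14, which sheds CD44, had a log2 fold change of 0.74 (standard error 0.191) and was highest, at 17.9 CPM, in rat 8. Egfr, a receptor tyrosine kinase, had one of 0.49 (standard error 0.198).

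Membrane partners and activating kinases of the ERM proteins had a median log2 fold change of 0.15. Beside 6.7% of all tested features, 1 of their 10 tested genes was higher with an unadjusted p under 0.05. This was Pdpn (podoplanin), a membrane glycoprotein that binds ezrin, moesin and CD44. It was counted at 21.6 to 32 CPM in sham rats and at 31.9, 180.4, 25.2, 28.5 and 43.3 CPM in stimulated rats 6 to 10, with a log2 fold change of 1.11 (standard error 0.465, adjusted p = 0.454). Of the band 4.1 proteins, which share the FERM domain, 0 of 5 tested had an unadjusted p under 0.05 and the median was -0.08. The most counted of them, Epb41l1, had 549.3 ± 15.3 CPM in the sham group and 519.8 ± 43.1 CPM in the stimulated group (mean ± SD of 5 rats).

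In the Hippo pathway, which merlin feeds, 4 of 16 tested genes were higher and 1 was lower with an unadjusted p under 0.05, and the median log2 fold change was 0.12. Ccn1, a secreted matrix protein and transcriptional target of the pathway, had a log2 fold change of 3.88 (standard error 1.1, adjusted p = 0.38). It was at 22.8 CPM in rat 7 against at most 1.24 CPM in the other rats. Ccn2, Ankrd1 and Amotl2, of the same list, did not follow it. Their log2 fold changes were 0.08 (standard error 0.247), -0.63 (standard error 0.451) and -0.10 (standard error 0.179), none with an unadjusted p under 0.05. Frmd6, a FERM protein upstream of the kinases, had one of 0.99 (standard error 0.359), with 52.2 CPM in rat 9 and 9.39 to 12.7 CPM in sham rats. The transcription factor Tead1 and the kinase adaptor Mob1a had values of 1.01 (standard error 0.359) and 0.32 (standard error 0.122), and the kinase Lats2 had one of -0.26 (standard error 0.115). Claudin-like relatives of Pmp22 had a median of -0.16 over 7 tested genes, of which 1, Tmem47, was higher with an unadjusted p under 0.05 at a log2 fold change of 0.29 (standard error 0.124). Partners of the Emp proteins had 2 of 5, the integrin subunit Itgb1 at 0.28 (standard error 0.115) and the caveolar protein Cav1 at 0.55 (standard error 0.197), with a median of 0.10.

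Markers of the cells that could carry these transcripts are given beside them. Of all tested features, 6.7% were higher and 3.16% lower with an unadjusted p under 0.05. Reactive astrocyte genes were higher in stimulated rats for all 7 tested, 6 with an unadjusted p under 0.05, and their sum was 66.7 to 90.3 CPM in sham rats and 70.6, 452, 97.9, 126 and 217.2 CPM in stimulated rats 6 to 10. The intermediate filament gene Vim was at 250.4 CPM in rat 7 and 170.4 CPM in rat 10, and the protease inhibitor Timp1 at 67.4 CPM in rat 7, 20.6 CPM in rat 9 and 1.84 to 2.82 CPM in sham rats. Gfap, the astrocyte filament, was at 1326, 6469, 1375, 2079 and 5396 CPM in stimulated rats 6 to 10 and at 1327 to 1927 CPM in sham rats. Rats 7, 10 and 9 were thus the 3 highest, in that order, for Gfap and for the reactive astrocyte sum, as they were for Cd44, Msn, Emp1 and Emp3. The part of gliosis in the levels of these 4 genes was not tested.

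**Figure D5:**
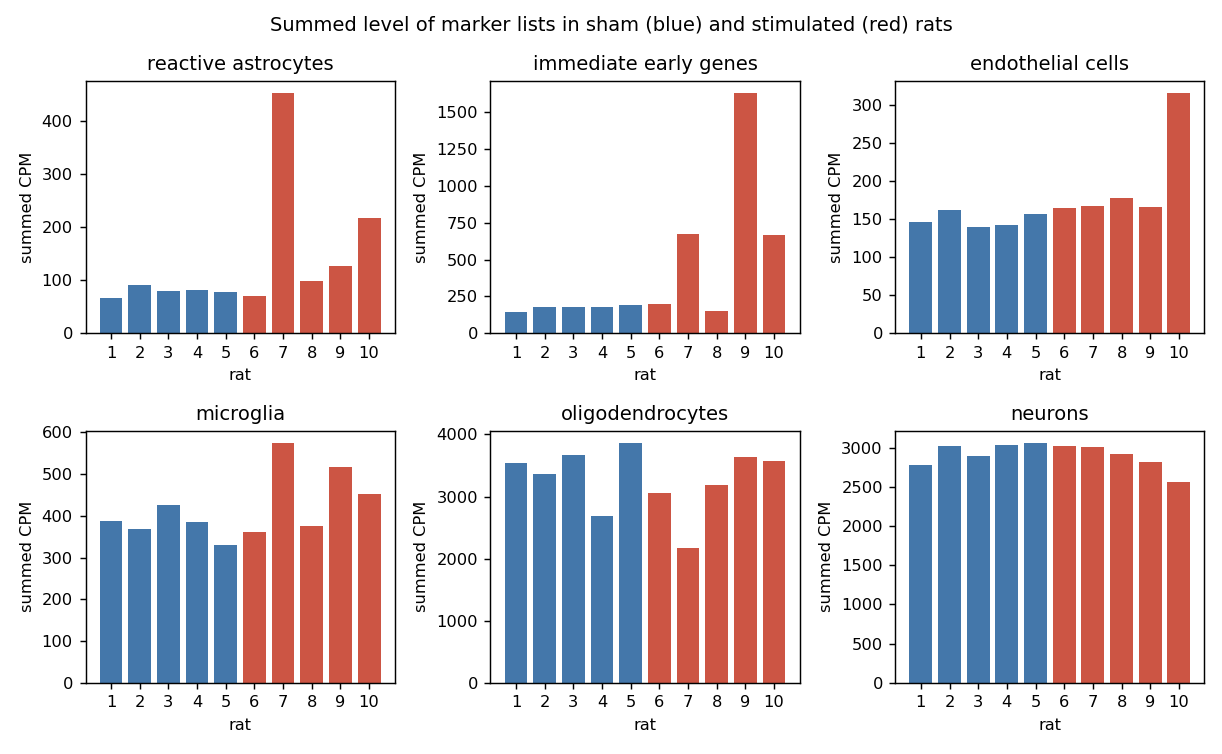
Summed CPM (vertical axes, starting at 0) of 6 marker lists in each of the 10 rats, sham in blue and stimulated in red. Reactive astrocyte genes are highest in rat 7 (452 CPM), immediate early genes in rat 9 (1632 CPM, of which Arc was 1118 CPM), and endothelial genes in rat 10 (315.1 CPM), while oligodendrocyte genes are lowest in rat 7 (2177 CPM).

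The other marker lists differed in which stimulated rats stood above the sham rats. Immediate early genes, the rapid response of neurons to firing, had 9 of 10 genes higher with an unadjusted p under 0.05, and summed to 146.1 to 190.9 CPM in sham rats and 198.1, 670.5, 147.6, 1632 and 665.8 CPM in stimulated rats 6 to 10. Of the sum in rat 9, Arc made up 1118 CPM. Without Arc the sums were 105.1 to 135.1 CPM in sham rats and 129.8, 482.3, 103.3, 514.8 and 458 CPM in stimulated rats 6 to 10, so rats 7, 9 and 10 stood above the sham rats here too. Endothelial genes had 5 of 7 by the same rule, with sums of 139.3 to 161.3 CPM in sham rats. In stimulated rats 6 to 10 they summed to 164.4, 167, 177.1, 165.5 and 315.1 CPM, all above the sham rats. Microglial genes had 2 of 9, C1qa and C1qb, with sums of 329.7 to 426.6 CPM in sham rats. In stimulated rats 6 to 10 these sums were 361.1, 575, 376.7, 517.1 and 452.8 CPM, so rats 7, 9 and 10 exceeded all sham rats. General astrocyte markers, Gfap among them, had 4 of 7, with sums of 3683 to 4253 and 3709 to 8603 CPM. Without Gfap these sums were 2164 to 2644 CPM in sham rats and 2133 to 2662 CPM in stimulated rats, lowest in rat 7. Aldh1l1 (16.4 CPM), Aldoc (742.1 CPM) and Gja1 (271.1 CPM), named here after their values were seen, were below all sham rats in rat 7. The other markers of the list, Aqp4 (162.3 CPM), Slc1a2 (193 CPM) and Slc1a3 (748.6 CPM), were above all sham rats in rat 7, as was Gfap. Markers of pericytes, smooth muscle and fibroblasts had 2 of 7, Acta2 and Lum, with sums of 65.97 to 83 CPM in sham rats. In stimulated rats 6 to 10 their sums were 84.2, 69.8, 114.1, 97.3 and 121.8 CPM, with rat 7 within the sham range.

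None of the 3 tested markers of blood leukocytes and perivascular macrophages, Ptprc, Mrc1 and Cd163, had an unadjusted p under 0.05. Nor did any marker of oligodendrocytes (0 of 7), neurons (0 of 6), choroid plexus (0 of 4) or the 3 hippocampal neuron types. The leukocyte and macrophage markers summed to 2.64 to 4.71 CPM in the sham group and 2.84 to 8.26 CPM in the stimulated group. The highest sum was in rat 9, where the macrophage marker Mrc1 was at 6.22 CPM. Ptprc, Cd3e, Cd163, S100a8 and S100a9 were under 1 CPM in the mean of each group. Oligodendrocyte genes summed to 2684 to 3867 and 2177 to 3640 CPM, neuronal genes to 2782 to 3061 and 2559 to 3016 CPM, and choroid plexus genes to 2.11 to 16.7 and 7.29 to 26.1 CPM. The lowest oligodendrocyte sum of the 10 rats was in rat 7, in which Pmp22 was highest. In rats 10 and 8, the next highest for Pmp22, this sum was 3579 and 3184 CPM, within the sham range. The part of oligodendrocytes in the Pmp22 levels was not tested.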

How the data were processed

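The deposited file is 1 matrix of raw read counts per RefSeq transcript, with a column for each rat and no normalization. According to the methods and labels, the authors aligned reads of 36 cycles to rn4 with BWA and counted them per gene with their own script. The deposited count rows carry RefSeq identifiers although an Ensembl annotation is named. The total of unaligned reads, which is also a row, was kept out of library sizes and tests. Symbols were matched by transcript identifier to the RefSeq gene table of GRCr8 (57.7% of tested features). Features with a summed count below the 30th percentile (46 counts) were removed, as in the study. The sham rats alone gave each of the 9 genes at least 212 counts. Groups came from the treatment labels, which are separate animals, and columns were matched by rat number. No sequencing batch is labelled.

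Stimulated and sham rats were compared with edgeR 4.0.16 in R 4.3.3 (TMM, quasi-likelihood test, package defaults, no covariate), and p-values, which are from this test wherever no other is given, were adjusted by Benjamini-Hochberg across the 22447 features tested. Log2 CPM used a prior count of 2. Code was tested on simulated data. Alternatives were other normalizations and filters, other edgeR tests, DESeq2 1.42.0, limma-voom 3.58.1 and the omission of each rat. All 9 genes were named, with, from each list of pathway genes or markers, up to 6 genes with an unadjusted p under 0.05 (the most counted where there was none), and the 5 genes most like Cd44 and 3 most like Msn and Emp3. Not every gene so selected is printed. Some marker genes are not reported here and were left out of the list sums. The genes, lists and tests were chosen with earlier results of these data known. Python 3.11.15, numpy 2.4.6, pandas 2.3.3, scipy 1.17.1 and matplotlib 3.10.9 were used.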

Additional observations from a re-analysis of the deposited data

Results flagged for a closer look

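For each gene and each of 5 log2 ratios between the genes, the sham and the stimulated rats were searched for a rat standing apart, 28 sets of 5 values in all. A rat was singled out where its distance to the next value made up more than 0.71 of the spread from lowest to highest (Dixon's criterion). That held for 4 sets, all of stimulated rats. Chance would give about 1.4 for independent sets of normally distributed values. The sets share rats and the ratios reuse the genes, so the count cannot be weighed against chance. Cd44 was at 95.3 CPM in rat 7 against 20.5 CPM in the next rat, a gap of 0.829 of the range. Emp1 was at 26.1 CPM in rat 7 against 4.44 CPM in the next rat, a gap of 0.905. In the same rat, the log2 ratio of Emp1 to Emp2 was 2.905 against 0.37, a gap of 0.717. Rdx was at 104.9 CPM in rat 8 against 79.9 CPM, a gap of 0.863. Levels were compared in CPM and ratios in log2. In a comparison of log2 CPM, chosen after seeing the data, the gap was 0.527 for Cd44, under the critical value, and it stayed above that value for Emp1 (0.717) and Rdx (0.842). On that scale the low Emp2 level of sham rat 4 also exceeded it, with a gap of 0.74.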

How the results depend on the processing

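No paired analysis was possible because each rat belongs to 1 group and the labels number the rats from 1 to 10. The likelihood ratio test of edgeR gave Msn a log2 fold change of 1.30 with an adjusted p of 0.0462, and it was the only one of the alternatives in which a gene of the 9 passed the threshold. Features with an adjusted p under 0.05 numbered 119 in that test, 89 in edgeR's exact test and 33 in DESeq2, and 0 in the other 18 alternatives; the cause was not tested. Of the 9 genes, 3 had an unadjusted p under 0.05 with limma-voom, and 4 to 5 without 1 rat each. Over all tested features, 1097 were higher by that rule with limma-voom, and 1066 to 1858 without 1 rat each. Without 1 rat each, the log2 fold change was 0.89 to 2.48 for Cd44, 0.82 to 1.48 for Msn, 0.55 to 2.03 for Emp1, 1.09 to 1.74 for Emp3, 0.32 to 0.58 for Pmp22, 0.09 to 0.29 for Ezr and 0.02 to 0.08 for Nf2. It crossed 0 for Rdx (-0.034 to 0.11) and Emp2 (-0.046 to 0.14). Features lower with an unadjusted p under 0.05 numbered 536 to 1287 in these fits, with 1287 and 1241 without rats 6 and 8. The lowest read counts in a rat were 20 for Emp1, 52 for Emp2 and 34 for Emp3.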
